A study of Mus musculus with 8 samples.

Results

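The cytosolic heat-shock chaperones and their transcription factor were followed in AML12 cells, a hepatocyte line derived from a mouse transgenic for TGF-α. Control cells received no irisin and irisin cells received 0.5 µg/ml irisin, the peptide cleaved from Fndc5, for 24 hr. All cultures were otherwise kept in the same serum-containing DMEM F-12 medium. Cy3-labeled cRNA from the total RNA of 4 control and 4 irisin samples was read on 8 Agilent arrays, 1 sample to an array. The labels name no separate cultures, so p-values measure the spread between these samples, which may be technical. The control arrays shared 1 slide and scan time and the irisin arrays a different slide and scan time, so slide, scan and irisin cannot be told apart. The 10 genes were Hsf1, Hspa1a, Hspa1b, Hspa8, Hsph1, Hspb1, Hspb8, Dnaja1, Dnajb1 and Hsp90aa1. Every non-control probe whose accession belongs to 1 of these genes was taken, which gave 13 of the 39429 probes of the array and 9 of the 10 genes. Hspa8 had 3 probes, Dnaja1 and Hsph1 had 2 each, and the other 6 genes had 1 each. Hspa1b was matched to no probe and has no value here.

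When proteins unfold, heat-shock factor 1 (HSF1) forms trimers, binds heat-shock elements in promoters and raises the transcription of chaperone genes. HSP70 chaperones bind unfolded stretches of protein, J-domain proteins such as Dnaja1 and Dnajb1 bring them their clients and start ATP hydrolysis, and HSP110 proteins such as Hsph1 exchange the nucleotide. HSP90 then acts on proteins close to their folded form, many of them kinases and steroid receptors, and the small heat-shock proteins hold unfolding proteins without ATP. Some of these genes, above all Hspa1a and Hspa1b, are strongly induced by stress, whereas Hspa8 encodes the constitutive HSP70 of unstressed cells.

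Heat-shock elements are shown first, since HSF1 acts through them and 6 of the 10 genes had a match. The element is built from GAA units that alternate between the strands. RefSeq promoters of GRCm38.p6, from 250 bases before to 50 bases after a transcription start, were searched on both strands for GAANNTTC and TTCNNGAA, the 2-unit forms, and for GAANNTTCNNGAA, the 3-unit form, which contains both of them. The table held 11 promoters of 7 of the 10 genes, and none was found there for Hsf1, Hspa8 and Hsp90aa1. A 2-unit form was present in 7 of the 11 promoters, in Dnaja1, Hspa1a, Hspa1b, Hspb1, Hspb8 and Hsph1, and in 15.1% of all 32851 promoters. GAANNTTC alone was present in 7.86% of all promoters, TTCNNGAA in 8.52% and the 3-unit form in 0.603%. The 3-unit form was present in both promoters of Hsph1 and in no other promoter of these genes. Neither promoter of Dnajb1 held any of the 3 forms. The stretches around the matches follow 5′ to 3′ on the strand of the gene, with the match in capitals.
Hspa1a, chr17:34972245-34972268, minus strand: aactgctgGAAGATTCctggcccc
Hspa1b, chr17:34959327-34959350, minus strand: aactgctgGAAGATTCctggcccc
Dnaja1, chr4:40722336-40722359, plus strand: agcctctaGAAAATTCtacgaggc
Hspb1, chr5:135887794-135887817, plus strand: caacaagaGAAGTTTCcagatggg
Hspb1, chr5:135887814-135887837, plus strand: tgggggcaGAACCTTCctggcccc
Hspb8, chr5:116422847-116422870, minus strand: agccaggaGAAGTTTCtaggctcg
Hsph1, chr5:149636354-149636377, minus strand: tagaatctTTCTCGAAggctcgag
Hsph1, chr5:149636280-149636308, minus strand: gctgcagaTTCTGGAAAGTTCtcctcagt

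The match of Hspa1a and that of Hspa1b both began 104 bases before the start, and the stretches printed above are identical. Over the whole 300 bases the 2 promoters differed at 4 bases. The match of Dnaja1 began 124 bases before its start, and those of Hspb1 117 and 97 bases before. The match of Hspb8 began 2 bases after its start. The 3-unit form of Hsph1 is 1 genomic site in 2 overlapping promoters and began 15 or 36 bases after their starts. Such a match is a description of the letters, and binding of HSF1 was not measured.

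Levels are given as the log2 of the background-subtracted signal with each array's own 75th percentile set to 0, so that 1 unit is a doubling relative to the other probes of that array. A probe was called up-regulated or down-regulated from a 1.5-fold change on, provided that the limma p-value, adjusted by Benjamini-Hochberg over all 24092 tested probes, was under 0.05. The 75th percentile of the signal was 372 to 534 on the control arrays and 682 to 850 on the irisin arrays. No spot was saturated. All 8 arrays had the 12 hepatocyte markers (Alb, Hnf4a and others) well above background. Of the markers of other liver cells, this held for 4 of 5 cholangiocyte, 3 of 6 macrophage, 2 of 5 endothelial and 0 of 6 stellate genes. The summed hepatocyte markers were 8.91 to 9.06 on the control arrays and 8.62 to 8.86 on the irisin arrays. Linear values were summed, so the bright Krt18 and Trf, with changes of −0.47 and −0.39, weigh most. Alb, Apob and Fgb changed by 0.11, 0.24 and 0.14, the other hepatocyte markers were lower, and 0 of the 12 were called. Summed cholangiocyte markers were 5.79 to 5.95 and 5.86 to 5.93, and summed macrophage markers were 3.67 to 3.89 and 3.52 to 3.73. Endothelial markers summed to −0.51 to −0.34 in control and −1.28 to −0.78 with irisin, and stellate markers to −5.23 to −5.07 and −6.22 to −5.72. On no array were 5 of the 6 stellate and 2 of the 5 endothelial genes well above background. The stellate sum thus lies close to background, and Kdr (mean −0.51 in control and −1.07 with irisin) makes up most of the endothelial sum. The endothelial Pecam1, with a change of −0.61 (limma adjusted p = 0.00214), was the only marker of any list that was called. The part of these differences in the values below was not tested.

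No heat-shock gene was called up-regulated after 24 hr of irisin treatment, and the only down-regulated probe was 1 of Hspa8. All 13 heat-shock probes were tested and had signal well above background on every array, so that 0 of 13 were called higher and 1 of 13 lower. The share called higher over all tested probes was 0.714%, and the share called lower was 11.7%. At an unadjusted p under 0.05 there were 5 heat-shock probes, all lower with irisin, beside 34.3% of all probes in either direction. At an adjusted p under 0.05 without the fold threshold there were 3, all lower, beside 21.6% of all probes that were lower and 2.96% that were higher. The change was below 0 for 11 of the 13 probes and for 65.2% of all tested probes. The median change over the 9 genes, with the probe of highest mean signal standing for its gene, was −0.11, beside −0.064 over all 14311 tested genes. The 95% confidence interval of the change lay inside 1.5-fold in both directions for 10 of the 13 probes. The arrays were also scaled to spike-in RNA in place of the 75th percentile. The median was then 0.47 over these genes and 0.51 over all tested genes, and without scaling 0.63 and 0.67. With these 2 settings 2 and 8 of the 13 probes were called, all higher. Of all 24092 tested probes, 7804 and 14920 were called higher with the same settings, and 362 and 162 lower. The directions given here are thus relative to the other probes of the array.

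**Figure D1:**
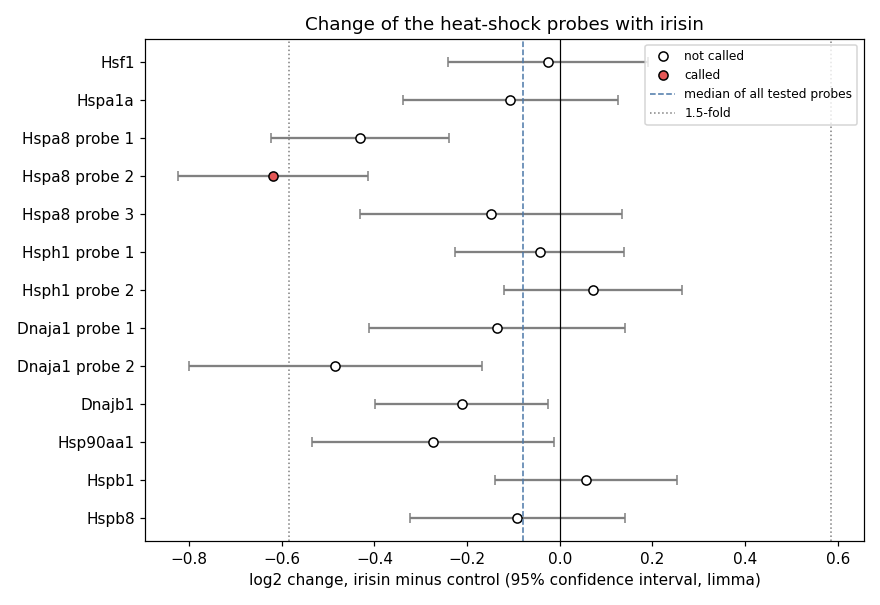
Log2 change with irisin (irisin minus control, x axis) for each of the 13 heat-shock probes, with its 95% confidence interval from limma over 4 control and 4 irisin arrays. Only Hspa8 probe 2, at −0.62, was called, and the dashed line marks the median of all tested probes at −0.080.

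Hsf1, the transcription factor that drives the response, did not pass the test. Its probe gave 1.47, 1.45, 1.61 and 1.72 on control replicates 1 to 4 and 1.49, 1.72, 1.42 and 1.53 on irisin replicates 1 to 4. The groups overlapped over almost their whole range. The mean was 1.56 ± 0.127 in control and 1.54 ± 0.128 with irisin (SD, n = 4). The change was −0.025 with a 95% confidence interval from −0.24 to 0.19 (SE 0.097, adjusted p = 0.895).

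Hspa1a, the stress-inducible HSP70, did not pass the test. The values were −4.57, −4.38, −4.55 and −4.26 in control and −4.53, −4.70, −4.35 and −4.60 with irisin, from replicate 1 to 4. Both groups covered much the same range, and the signal was low, at 15.7 to 39.4 units on the 8 arrays where negative control spots had a median of about 1.00. The change was −0.11 (95% confidence interval −0.34 to 0.13, adjusted p = 0.539). The value of this dim probe depended on how the background and the scale were handled. With normexp background correction it was −0.47 with an adjusted p of 0.00038, still under 1.5-fold. Normexp was run with an offset of 50, above the signal of this probe, so that value cannot be read as a change of the gene. With quantile normalization and cyclic loess the change was 0.15 and 0.18. Hspa1b encodes a nearly identical protein, so signal from its transcript at the probe of Hspa1a could not be separated.

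Hspa8, the constitutive HSP70, had a lower mean with irisin on all 3 of its probes. The groups did not overlap on 2 of the 3, of which 1 was called. Probe 2 read 6.14, 6.02, 6.05 and 6.09 in control and 5.51, 5.65, 5.36 and 5.31 with irisin. All irisin arrays lay below all control arrays. The mean went from 6.08 ± 0.0525 to 5.46 ± 0.152 (SD, n = 4), a change of −0.62 or 0.651-fold (SE 0.092, adjusted p = 0.00072, exact permutation p = 0.0286, the smallest 4 against 4 arrays can give). This was the only called probe of the 13, and without irisin replicate 4 its change of −0.57 no longer reached 1.5-fold.

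Probe 1 of Hspa8 showed the same direction below the fold threshold. Its values were 6.28, 6.26, 6.35 and 6.37 in control and 5.85, 6.07, 5.80 and 5.82 with irisin, again without overlap. The change was −0.43 (95% confidence interval −0.62 to −0.24, adjusted p = 0.00384). Probe 3 read 4.28, 4.68, 4.44 and 4.13 in control and 4.44, 4.25, 4.09 and 4.16 with irisin, and here the groups overlapped. Its change was −0.15 (95% confidence interval −0.43 to 0.13, adjusted p = 0.468). The 3 probes are aimed at the same gene and are not replicates of the treatment, and the difference between them was not tested.

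**Figure D2:**
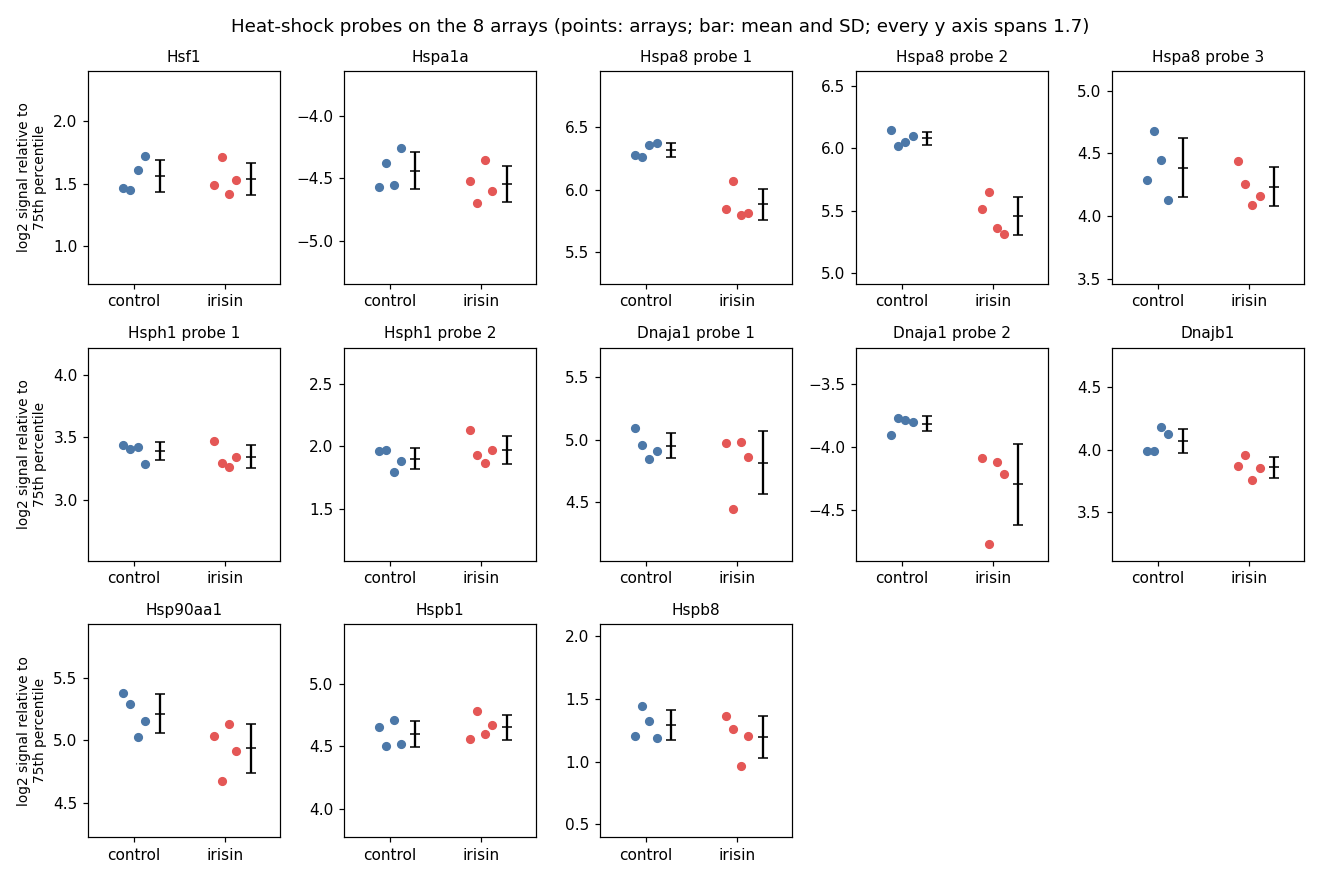
Log2 signal relative to the 75th percentile (y axis) of the 13 heat-shock probes on each control and irisin array, with the mean and SD of 4 arrays beside the points. Groups do not overlap for Hspa8 probes 1 and 2, Dnaja1 probe 2 and Dnajb1, each lower with irisin.

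The change of Hspa8 was set beside that of other probes of like brightness. Among the 688 tested probes with a mean log2 signal of 6 or more, where Hspa8 probe 1 lies, the median change was −0.36 with quartiles of −0.46 and −0.25, and 100% were below 0. Among the 797 probes from 5 to 6, where Hspa8 probe 2 lies, the median was −0.21 with quartiles of −0.31 and −0.12, 94.4% were below 0 and 3.26% were called down-regulated. Hspa8 probe 1 thus lay within the quartiles of its range of brightness and probe 2 lay below those of its own. Of the other members, Dnajb1 lay below the quartiles of its range (−0.13 to 0.044 for a mean of 2 to 4) and Hspb1 above those of its own (−0.20 to −0.037 for a mean of 4 to 5). Under normexp, quantile normalization and cyclic loess, probe 2 changed by −0.47, −0.37 and −0.43. It fell under 1.5-fold and was no longer called, with limma adjusted p of 0.00028, 0.0097 and 0.0063. Probe 1 changed by −0.28, −0.14 and −0.23 under the same settings. The median of the 688 brightest probes, which include probe 1 but not probe 2, was then −0.29, −0.0062 and −0.13. The part of brightness in the change of Hspa8 was not tested.

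**Figure D3:**
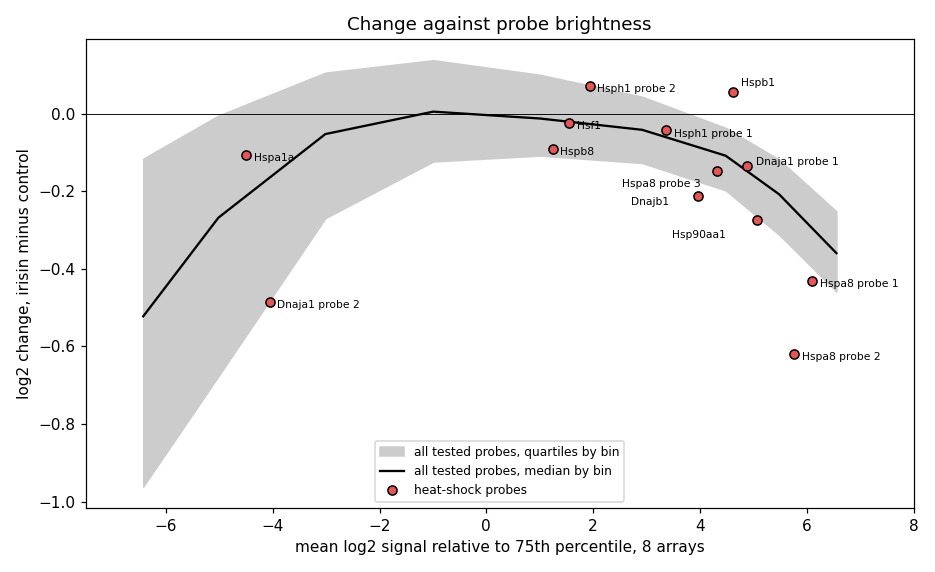
Change with irisin (log2, y axis) against the mean log2 signal over the 8 arrays (x axis), with the line and band giving the median and quartiles of all tested probes by range of brightness and the points giving the 13 heat-shock probes. The median of all probes is near 0 in the middle and reaches −0.36 among the brightest and −0.52 among the dimmest, Hspa8 probe 2 and Dnajb1 lie below the quartiles of their range and Hspb1 lies above those of its own.

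Hsph1, the HSP110 nucleotide exchange factor whose promoters carry the 3-unit form printed above, passed the test on neither probe. Probe 1 ranged from 3.28 to 3.44 in control and from 3.26 to 3.47 with irisin, a change of −0.043 (95% confidence interval −0.23 to 0.14, adjusted p = 0.769). Probe 2 ranged from 1.79 to 1.97 in control and from 1.87 to 2.13 with irisin, a change of 0.072 (95% confidence interval −0.12 to 0.26, adjusted p = 0.627).

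The J-domain proteins Dnaja1 and Dnajb1, which deliver clients to HSP70, were lower on average but were not called. Dnajb1 read 3.99, 3.99, 4.18 and 4.12 in control and 3.87, 3.96, 3.76 and 3.85 with irisin. The groups did not overlap, which was the case for 4 of the 13 heat-shock probes, all lower with irisin, beside 23% of all tested probes lower and 4.18% higher. The change was −0.21 (95% confidence interval −0.40 to −0.025, adjusted p = 0.0998).

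Dnaja1 was measured by a bright and a dim probe. The bright probe 1 read 5.09, 4.96, 4.85 and 4.91 in control and 4.97, 4.45, 4.99 and 4.86 with irisin. Irisin replicate 2 was the low array here, and the other irisin arrays lay within the range of the control arrays. The change was −0.14 (95% confidence interval −0.41 to 0.14, adjusted p = 0.503), and without irisin replicate 2 it was −0.012. The dim probe 2 read −3.90, −3.77, −3.79 and −3.80 in control and −4.09, −4.77, −4.12 and −4.21 with irisin. These groups did not overlap, and irisin replicate 2 was again the lowest. Its change was −0.48 (95% confidence interval −0.80 to −0.17, adjusted p = 0.0301), under the fold threshold. Without irisin replicate 2 it was −0.33 with an adjusted p of 0.0101, and with 1 control array left out the adjusted p was 0.0504 to 0.0692.

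Hsp90aa1, the stress-inducible cytosolic HSP90, was not called either. It read 5.38, 5.29, 5.03 and 5.15 in control and 5.04, 4.67, 5.13 and 4.92 with irisin. The groups overlapped, and irisin replicate 2 was once more the lowest array. The change was −0.27 (95% confidence interval −0.53 to −0.013, adjusted p = 0.127), or −0.19 without irisin replicate 2. The probe falls in the range of brightness from 5 to 6, whose median change is given above.

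The small heat-shock proteins Hspb1 and Hspb8, which keep unfolding proteins from aggregating, did not pass the test. Hspb1 ranged from 4.50 to 4.71 in control and from 4.56 to 4.79 with irisin, a change of 0.056 (95% confidence interval −0.14 to 0.25, adjusted p = 0.717). Hspb8, which works with Bag3, ranged from 1.19 to 1.44 in control and from 0.967 to 1.37 with irisin, a change of −0.092 (95% confidence interval −0.32 to 0.14, adjusted p = 0.604). Hspb1 and Hsph1 probe 2 were the only heat-shock probes with a positive change, and under all settings tried they stayed above 0.

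**Figure D4:**
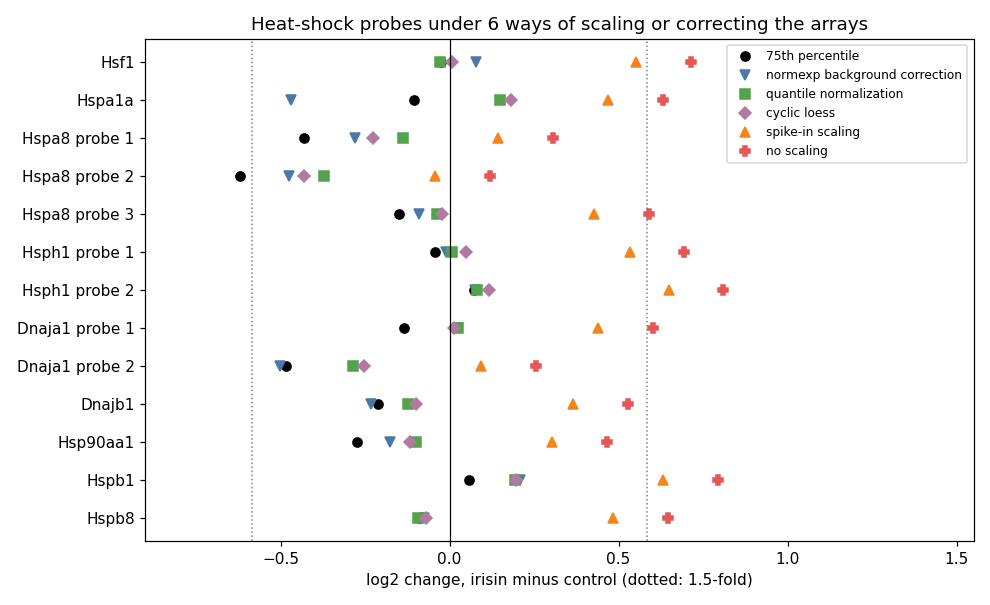
Log2 change with irisin (x axis) of each heat-shock probe when the arrays are scaled to the 75th percentile and under 5 other ways of background correction or scaling. Probes move together with spike-in scaling and without scaling, to between −0.043 and 0.65 and between 0.12 and 0.81, and no probe is called with normexp, quantile normalization or cyclic loess.

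From array to array the members deviated in both directions. After each group's mean was taken off, Dnaja1 probe 1 and Hsp90aa1 moved alike over the 8 arrays (Pearson r = 0.92), as did Hsf1 and Hspa8 probe 1 (r = 0.89). Dnaja1 probe 1 and Hspa8 probe 1 moved oppositely (r = −0.92), as did Dnajb1 and Hsp90aa1 (r = −0.92). Irisin replicate 2 was the array farthest from its group mean for Dnaja1 probe 1, Hsp90aa1, Hspa8 probe 1, Hsf1 and Hspb1. It lay at −0.37, −0.26, 0.19, 0.18 and 0.13 for them, in that order. This array stood apart over all tested probes and not only for the members. The SD of its difference from another irisin array was 0.292 to 0.405, against 0.249 to 0.273 between the others. The coefficients rest on 8 arrays, of which irisin replicate 2 stood apart, and are descriptions only. The mean deviation over the 9 genes stayed between −0.019 and 0.044 on all arrays. Among 13696 other genes, the deviations most like this mean were those of Gm9926 (r = 0.987), 1700094D03Rik (r = 0.983), Dcun1d3 (r = 0.972), Pgm5 (r = 0.968) and Rprd1a (r = 0.966), none of which was called. They were picked for the highest r among all these genes over 8 arrays, so their r values show no link to the members.

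The rest of the chaperone system was read in the same way. Of 89 further genes in 10 lists, 84 were tested, and 0 were up-regulated and 3 down-regulated on their brightest probe, beside 0.531% and 10.2% of all tested genes. The median change of the 84 genes was −0.089, and 56 of them were below 0, beside 64% of all tested genes. The 3 called genes were Hspa1l of the HSP70 family and the small heat-shock proteins Cryaa and Hspb9. Hspa1l, an HSP70 known for its expression in the testis, changed by −1.32 from −5.89 ± 0.127 to −7.22 ± 0.41 (SD, n = 4, adjusted p = 0.000412). Cryaa, the αA-crystallin of the lens, changed by −0.87 (adjusted p = 0.000633). Hspb9, another gene known from the testis, changed by −0.71 (adjusted p = 0.0016). All 3 had dim probes, and among the 1940 tested probes with a mean log2 signal under −6, where Hspa1l and Cryaa lie, 45.9% were called down-regulated. Among the 3956 probes from −4 to −2, where Hspb9 lies, 9.33% were. Hspa1l was also called with normexp (−0.64), quantile normalization (−0.74) and cyclic loess (−0.79). These settings used the same probes, which had to stand well above background in only 1 whole group. Whether Hspa1l and Cryaa did so in both groups is not given here, so the repeated calls are no separate support. Cryaa was called with normexp (−0.61) but not with quantile normalization (−0.34) or cyclic loess (−0.37). Hspb9 was called with none of the 3. It changed by −0.58, −0.52 and −0.49, under 1.5-fold, with limma adjusted p of 6.7e-05, 0.016 and 0.018. In the other direction, Hmox1, the heme oxygenase, was called higher with normexp (0.64, adjusted p = 0.0348), beside 0.67 with an adjusted p of 0.166 by the 75th percentile. Hsf5, a heat-shock factor known from the testis, was called higher with quantile normalization (0.62) and cyclic loess (0.61). It changed by 0.14 by the 75th percentile and by −0.55 with normexp. Normexp, with its offset of 50, placed the dim Hspa1l, Cryaa, Hspb9 and Hsf5 at −0.64, −0.61, −0.58 and −0.55. Their changes by the 75th percentile were −1.32, −0.87, −0.71 and 0.14, so normexp calls of such dim genes are no support for them.

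These counts rest on the brightest probe of each gene. Over all 113 tested probes of the lists, 3 were called higher and 3 lower, beside 0.714% and 11.7% of all tested probes. The 3 higher ones were 2 of the 4 probes of Dnajb6, a J-domain protein, and 1 of Vbp1, a prefoldin subunit. The probes of Dnajb6 disagreed, with 0.81 (adjusted p = 0.00122) and 0.82 (adjusted p = 0.00144) on the called ones and −0.28 (adjusted p = 0.0645) and −0.26 (adjusted p = 0.122) on the 2 brighter ones. Vbp1 changed by 0.62 (adjusted p = 0.00996) on the called probe and by 0.44 (adjusted p = 0.0934) on its brighter one. Hmox1, Hsf5, Dnajb6 and Vbp1 were named after their values were seen.

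In the lists without a called gene, the gene with the highest mean signal stands for its list. Hsbp1, a negative regulator of HSF1, changed by 0.15 (adjusted p = 0.26). Among the J-domain proteins, 0 of 12 tested were called on their brightest probe, and Dnajc9, which handles histones, changed by 0.043. Among the HSP70 co-chaperones, 0 of 10 were called, and the exchange factor Bag1 changed by −0.12. The constitutive Hsp90ab1 changed by −0.35 (adjusted p = 0.0139) and was under the fold threshold, as were all 16 genes of HSP90 and its co-chaperones.

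The TRiC chaperonin, the ring that folds actin and tubulin, had 8 tested subunits and no called one. Its Cct5 changed by −0.39 (adjusted p = 0.00302), and Cct6a, named after its value was seen, changed by 0.32 (adjusted p = 0.0323). The median over the subunits was −0.0055. Of the 6 prefoldin subunits, which pass actin and tubulin to TRiC, 0 were called on their brightest probe, and Pfdn6 changed by 0.073. The mitochondrial chaperonin Hspd1 changed by −0.17 (adjusted p = 0.193), with 0 of 8 mitochondrial chaperones called. Of 8 other genes that HSF1 can induce, 0 were called, and the polyubiquitin gene Ubb changed by −0.36 (adjusted p = 0.00832). Ubb and Hsp90ab1 lie among the probes with a mean log2 signal of 6 or more, whose median change was −0.36.

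**Figure D5:**
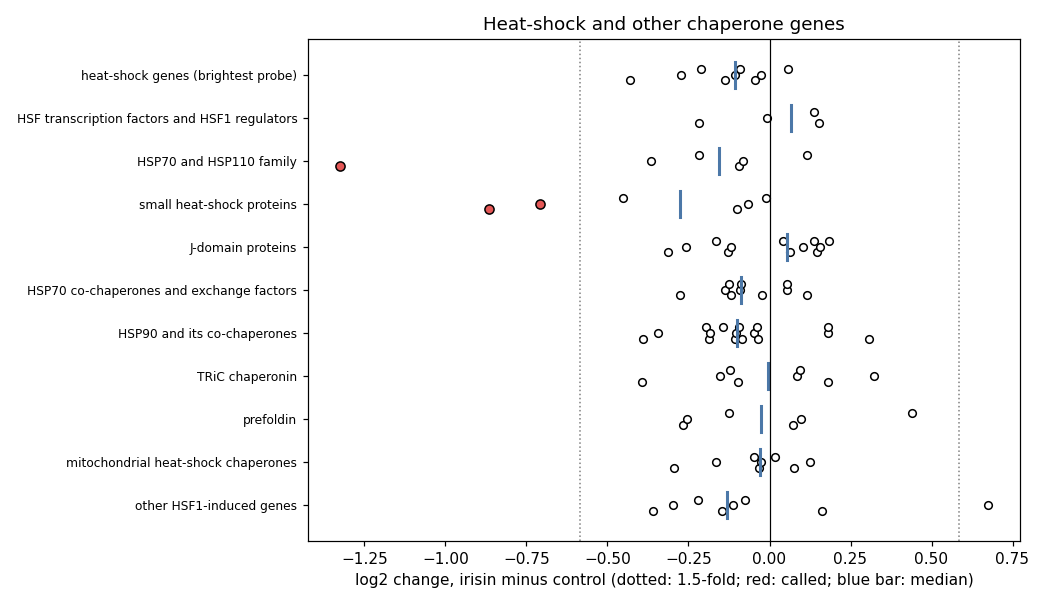
Log2 change with irisin (x axis) of the 9 measured heat-shock genes and of 84 other chaperone genes in 10 lists, 1 point per gene by its brightest probe, with called genes in red and the median of each list as a blue bar. Medians lie between −0.28 and 0.066, and the 3 called genes are the dim Hspa1l, Cryaa and Hspb9.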

How the data were processed

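RNA of 8 samples was measured, grouped by the deposited labels. The authors scanned one-color Agilent arrays and processed them with Feature Extraction 12.0.3.1 (background subtraction, spatial detrending and error modeling). The deposited values, scanner output and a value table, are signal intensity on a linear scale, not normalized between arrays. The array design in the file headers is not the one the paper's methods give.

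Spots marked as outliers were left out, spots of 1 probe were averaged, and each array's 75th percentile was subtracted from its log2 signals. Accessions of 28663 of 39429 probes matched a symbol in RefSeq (GRCm38.p6). limma 3.58.1 (lmFit, eBayes) in R 4.3.3 was fitted without covariates to the 24092 probes that stood well above background in a whole group of 4 arrays (1 or both groups). The exact two-sided permutation test had 70 assignments. The fit was tested on simulated data. Files were read and plots drawn with Python 3.11.15, pandas 2.3.3 and matplotlib 3.10.9. The number of arrays limits the precision.

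Named were all members, called genes of the other lists, otherwise the gene of highest mean signal of a list, and the 5 genes most like the mean of the members. The members and lists were chosen with earlier results of these data known. The alternatives were normexp (offset 50), quantile normalization, cyclic loess, spike-in scaling, no scaling, median scaling, the value table, other filters and thresholds, marked spots kept, trended robust eBayes, the methods' test, mean over the probes of a gene, a replicate block and each array left out.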

Additional observations from a re-analysis of the deposited data

How the results depend on the processing

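Normexp was to be fitted on all spots, but on irisin replicates 2 and 4 a few spots with a local background far above the spot moved its background estimate to −306 and −395, beside −8.06 to −10.7 on the other arrays. It was therefore run without 13 such spots, a setting chosen after seeing the data.

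The number of called probes, 2987 (172 higher, 2815 lower), became 1691 (670 and 1021) under quantile normalization, 1625 (699 and 926) under cyclic loess, 8166 (7804 and 362) when scaled to the spike-ins, 15082 (14920 and 162) without scaling, 12934 without a filter on dim probes, 5909 with the adjusted p alone and 800 with a 2-fold threshold. It was 2486 (53 higher and 2433 lower) with normexp. With 1 array left out it was 2784 to 3386, the highest without irisin replicate 2. The median of all tested probes was 0.50 with spike-in scaling and 0.66 without scaling, against −0.080.

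Of the heat-shock probes, 0 were called with normexp, quantile normalization, cyclic loess and the 2-fold threshold, 2 with spike-in scaling and 8 without scaling (all higher), 3 with the adjusted p alone, and 0 to 1 with 1 array left out. The called probe of Hspa8 was −0.043 with spike-in scaling and 0.12 without scaling. The median over the genes was −0.076 with normexp, −0.027 with quantile normalization, 0.0068 with cyclic loess, 0.47 with spike-in scaling, 0.63 without scaling, and −0.17 to −0.084 with 1 array left out.

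Signs turned as follows. With spike-in scaling and without scaling, in that order, the changes were 0.44 and 0.60 for Dnaja1 probe 1, 0.092 and 0.25 for its probe 2, 0.36 and 0.53 for Dnajb1, 0.55 and 0.71 for Hsf1, 0.30 and 0.46 for Hsp90aa1, 0.47 and 0.63 for Hspa1a, 0.14 and 0.31 for Hspa8 probe 1, 0.43 and 0.59 for Hspa8 probe 3, 0.48 and 0.65 for Hspb8, and 0.53 and 0.69 for Hsph1 probe 1. With normexp, Dnaja1 probe 1 was 0.025 and Hsf1 0.079. With quantile normalization, Dnaja1 probe 1 was 0.024, Hspa1a 0.15 and Hsph1 probe 1 0.0085. With cyclic loess, Dnaja1 probe 1 was 0.014, Hsf1 0.0068, Hspa1a 0.18 and Hsph1 probe 1 0.047. Hsf1 was 0.027 without control replicate 4 and 0.016 without irisin replicate 3. With spike-in scaling and without scaling, the median over all tested probes was itself above 0, at 0.50 and 0.66. The cause of the turned signs was not tested for any setting.

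The groups share replicate numbers. Deviations of same-numbered arrays correlated at 0.109, −0.348, −0.125 and 0.165 for numbers 1 to 4. Those of differently numbered arrays correlated at −0.24 to 0.36. With 4 arrays in a group these values cannot settle whether the arrays were paired. With the replicate block 3004 probes were called, and of the heat-shock probes 1, as without it. Signal over background limits the dim probes of Hspa1a, Dnaja1 (probe 2), Hspa1l, Cryaa and Hspb9.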
